A study of Mus musculus with 2 samples.

Results

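Connexins and pacemaker channels of the mouse heart were described from 8 genes: the connexins Gja1, Gja4, Gja5, Gjc1 and Gjd3, and the hyperpolarization-activated channels Hcn2, Hcn3 and Hcn4. They were taken by name from the 43346 Ensembl genes of the deposited tables, through their gene identifiers and not through any measured value, and all 8 were found. The choice of genes was made with earlier results of these data known. The animal was 1 adult C57BL/6J mouse, a female of 10 weeks, with no allele or treatment named. Poly(A) RNA of its heart was sequenced in 2 libraries, technical replicate 1 and technical replicate 2 of 1 biological replicate, the later of which dates from 2015. There were no groups to compare, so every spread below is technical and no value extends to other mice. The labels name no chamber, and fewer cells of a type and less RNA per cell cannot be told apart in such a bulk sample.

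Connexins assemble into channels that join the cytoplasm of neighbouring cells, and in the heart these gap junctions carry the action potential from cell to cell. Connexin 43 (Gja1) is the main form of the working myocardium, connexin 40 (Gja5) is found in the atria, the fast conduction system and arterial endothelium, connexin 37 (Gja4) in arterial endothelium, and connexin 45 (Gjc1) and the Gjd3 product in nodal tissue. HCN channels open on hyperpolarization and carry the inward "funny" current of pacemaker cells. Hcn4 is the main form of the sinoatrial node, Hcn2 is found in the node and in working myocardium, and Hcn3 is a minor form.

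The connexins share a first extracellular loop with 3 cysteines that pair with those of the second loop, and this stretch shows how 4 of the genes write the same motif with different base composition. Each line gives 60 bases of coding sequence from the mm10 genome, read 5′ to 3′ on the gene's strand with annotation release M21, and the capitals mark the 3 cysteine codons.
Gja1, chr10:56387694-56387753, plus strand, exon 2: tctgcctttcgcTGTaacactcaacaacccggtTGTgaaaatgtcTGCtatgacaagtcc
Gja5, chr3:97050776-97050835, plus strand, exon 2: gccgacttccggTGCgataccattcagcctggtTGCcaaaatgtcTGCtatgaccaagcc
Gjc1, chr11:102800972-102801031, minus strand, exon 3: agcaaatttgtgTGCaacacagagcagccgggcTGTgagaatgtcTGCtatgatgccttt
Gjd3, chr11:98982810-98982869, minus strand, exon 1: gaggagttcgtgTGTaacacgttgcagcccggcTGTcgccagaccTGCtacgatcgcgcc
Gja1 matched Gja5 at 41 bases, Gjc1 at 37 and Gjd3 at 32. G and C made up 46.7% of the Gja1 window, 48.3% of Gjc1, 55% of Gja5 and 63.3% of Gjd3, and at the last base of each codon the range ran from 45% in Gja1 to 85% in Gjd3.

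The HCN genes share the potassium-channel selectivity filter, whose Gly-Tyr-Gly codons are in capitals in the 60 bases below.
Hcn2, chr10:79728929-79728988, plus strand, exon 4: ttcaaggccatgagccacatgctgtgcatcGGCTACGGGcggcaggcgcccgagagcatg
Hcn3, chr3:89150985-89151044, minus strand, exon 4: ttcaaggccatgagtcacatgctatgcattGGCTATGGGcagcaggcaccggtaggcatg
Hcn4, chr9:58855561-58855620, plus strand, exon 4: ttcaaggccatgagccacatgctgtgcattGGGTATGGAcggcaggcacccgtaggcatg
Hcn3 and Hcn4 matched at 54 of the 60 bases, and Hcn2 and Hcn4 at 52. All codons of the Hcn2 window end in G or C (100%), against 75% in Hcn4 and 70% in Hcn3.

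The libraries held 22775979 counts (replicate 1) and 19685806 counts (replicate 2), but they differed in what those counts covered. Nuclear genes, without mitochondrial genes and 11 nuclear copies of them, took 22.1% of the counts of replicate 1 and 64.3% of those of replicate 2, or 5028142 and 12654709 counts. TPM, an abundance per transcript length scaled to a fixed sum, was therefore also rescaled over nuclear genes alone ("nuclear TPM"). The mean GC content of nuclear counts was 45.04% in replicate 1 and 50.51% in replicate 2. Across 13155 genes, which are not independent replicates, the log2 ratio of replicate 2 over replicate 1 rose with GC content (Pearson's r = 0.85, Spearman's rho = 0.90, given as a description). All 5 working cardiomyocyte markers reached 1 TPM in both libraries.

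Gja1 was the most abundant member in each library. It had 7150 counts in replicate 1 and 7782 in replicate 2, or 75.6 and 138 TPM, and ranked 121st of 15585 genes above 0 in replicate 1 and 405th of 18109 in replicate 2. As nuclear TPM the order of the libraries turned: 1047 in replicate 1 against 353 in replicate 2, on average 700 ± 491 (SD, n = 2). The gene lies at chr10:56377330-56390415 on the plus strand, with its coding sequence in the last of 2 exons, and its 3′ UTR is poorer in G and C (38.0%) than its coding sequence (53.6%). Gja1 held 97.4% of the counts of the 8 members in replicate 1 and 86.5% in replicate 2.

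Gjc1, which encodes connexin 45, was second in both libraries and its nuclear level was the closest between them. It had 124 and 260 counts in replicates 1 and 2, or 2.07 and 8.10 TPM, which came to 28.7 and 20.7 nuclear TPM (24.7 ± 5.63, SD, n = 2). Per 1000000 nuclear counts the 95% Wilson intervals, 20.7 to 29.4 in replicate 1 and 18.2 to 23.2 in replicate 2, overlapped. Gjc1 and Gja1 were the only members at 1 TPM or more in both libraries; in replicate 2 alone, 6 of the 8 were. The locus is chr11:102799579-102819700 on the minus strand.

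Like all other members, the endothelial and fast-conduction connexins had more counts in replicate 2, the library with more nuclear counts. Gja4 was almost without counts in replicate 1. Gja5 (connexin 40; chr3:97032416-97053634, plus strand) had 52 and 362 counts in replicates 1 and 2, or 0.55 and 6.75 TPM, and 7.62 and 17.3 nuclear TPM (12.4 ± 6.82, SD, n = 2). Gja4 (connexin 37; chr4:127311421-127314039, minus strand) had 1 count in replicate 1 and 147 in replicate 2, or 0.02 and 5.08 TPM. Its intervals per 1000000 nuclear counts were 0.035 to 1.13 in replicate 1 and 9.88 to 13.7 in replicate 2, with no overlap. At the rate of replicate 2, 58.4 Gja4 counts would have fallen in replicate 1, where 1 was seen.

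Gjd3, a connexin of the atrioventricular node in mice, was at the floor in both libraries. It had no count in replicate 1, which allows up to 3 counts or 0.597 per 1000000 nuclear counts, and 1 count in replicate 2 (0.08 TPM). The gene is annotated as a single exon of 837 bases at chr11:98982180-98983016 on the minus strand, with no untranslated region, and at 70.3% its GC content exceeds that of 99.98% of the genes tested between the libraries. Its level was not detectable at this depth, which does not show that it is absent.

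**Figure D1:**
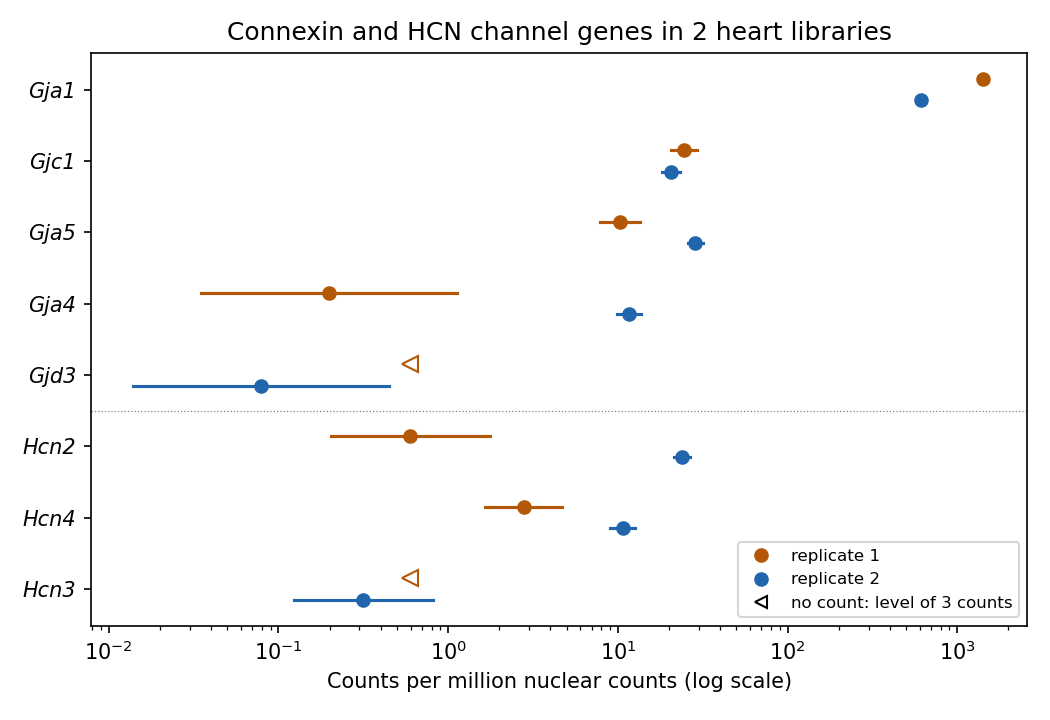
Counts of each gene per 1000000 nuclear counts (log axis) in technical replicates 1 and 2, connexins above the dotted line and HCN genes below it; points are single libraries, bars are 95% Wilson intervals, and open triangles mark the level of 3 counts where no count was found. Gja1 stands above all others in both libraries, the intervals of Gjc1 overlap, and those of Gja4, Gja5, Hcn2 and Hcn4 do not.

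Among all 20 connexin genes of the tables, Gja1 carried most of the transcript abundance. By counts per effective length it made up 96.4% of the family in replicate 1 and 84.4% in replicate 2. Gjc1 followed with 2.64% and 4.95%, Gja5 with 0.700% and 4.13%, and Gja4 with 0.0263% and 3.11%. Gja3, a connexin best known from the lens and not among the 8, stood beside Gja4 in replicate 2 at 3.0% but held 0.0289% in replicate 1. More than 3 counts were found for 4 connexin genes in replicate 1 and for 8 in replicate 2.

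The HCN genes were scarce, and the leading form differed between the libraries. Hcn2 (chr10:79716634-79736108, plus strand) had 3 counts in replicate 1 and 302 in replicate 2, or 0.03 and 5.19 TPM. Hcn4 (chr9:58823412-58863175, plus strand) had 14 and 135 counts, or 0.12 and 1.93 TPM, and 1.66 and 4.94 nuclear TPM (3.30 ± 2.32, SD, n = 2). Replicate 1 thus held more counts of Hcn4 than of Hcn2, and replicate 2 more of Hcn2.

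Hcn3 (chr3:89146074-89160196, minus strand) had 0 and 4 counts, or 0 and 0.28 TPM. It is the only member whose exons overlap another gene, Pklr on the opposite strand, and since strand use was not given in the sources used here even these counts are uncertain. Of the abundance per effective length summed over the 3 HCN members, Hcn4 took 78.9% in replicate 1 and 26.1% in replicate 2, Hcn2 21.1% and 70.1%, and Hcn3 0% and 3.83%. The shares of replicate 1 rest on 17 counts over the 3 genes, those of replicate 2 on 441. In replicate 2 the retained-intron transcripts Hcn3-202 (533 bases) and Hcn3-203 (909 bases) held 47.95% and 45.94% of the Hcn3 abundance. The coding Hcn3-201 (4002 bases) held 6.11%, at 0.02 TPM. The effective length of Hcn3 was 1331 in replicate 1 and 729 in replicate 2, so its level per length in replicate 2 rests mostly on short transcripts.

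**Figure D2:**
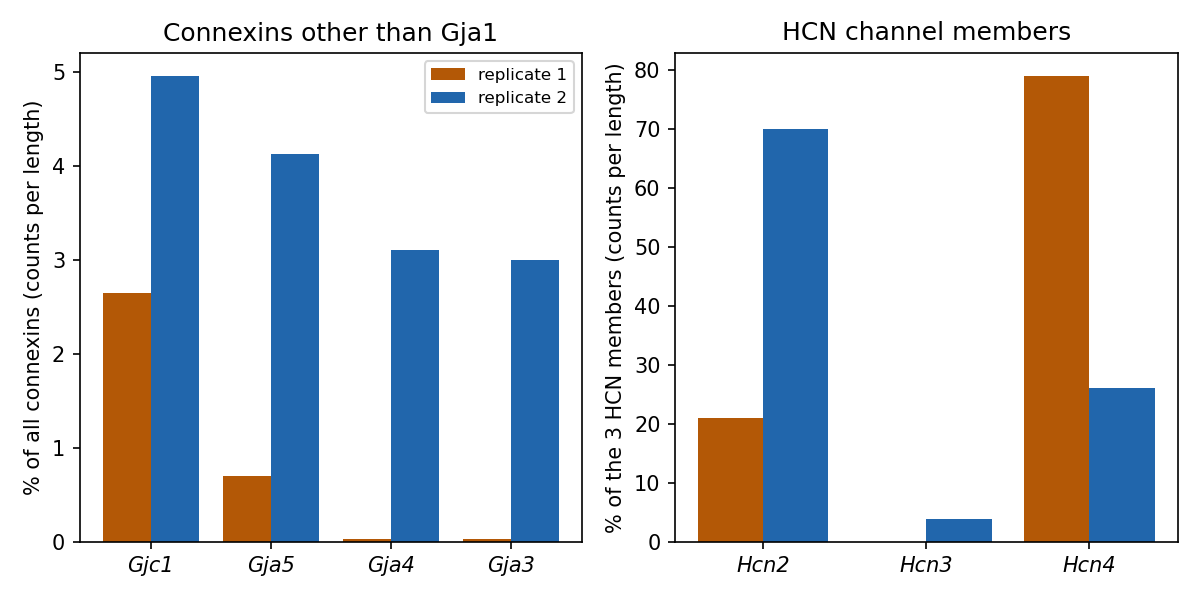
Share of each gene in percent of the counts per effective length, in technical replicates 1 and 2; left, the leading connexins other than Gja1 (Gja1, with 96.4% and 84.4%, is left out so that the others can be seen), and right, the 3 HCN members. Gja4 and Gja3 are near 0 in replicate 1, and the leading HCN member is Hcn4 in replicate 1 and Hcn2 in replicate 2.

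By mean nuclear TPM the order was Gja1, Gjc1, Gja5, Hcn2, Gja4, Hcn4, Hcn3 and Gjd3, and it held as such in replicate 2. Each of the 7 neighbouring pairs was compared within each library by a two-sided exact binomial test of counts per effective length, adjusted over the 14 tests by the Benjamini-Hochberg method. Gja1 exceeded Gjc1 36.5-fold in replicate 1 (95% exact interval 30.5 to 43.9) and 17.0-fold in replicate 2 (15.1 to 19.4). Gjc1 exceeded Gja5 3.77-fold (2.71 to 5.32; exact test, adjusted p = 8.78e-17) in replicate 1 but only 1.20-fold (1.02 to 1.41; adjusted p = 0.0437) in replicate 2. Gja5 over Hcn2 and Hcn4 over Hcn3 also passed in both libraries, so 4 of the 7 neighbours were ordered beyond counting error in each. With the authors' posterior mean TPM 3 passed, since Hcn4 then lay below Hcn3 in replicate 1.

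The remaining neighbours had no order that passed in both libraries. Hcn2 lay above Gja4 in both but could not be separated from it in replicate 2, at a ratio of 1.02 (0.837 to 1.25; exact test, adjusted p = 0.982), nor on 3 and 1 counts in replicate 1. Gja4 was 2.63-fold above Hcn4 in replicate 2 (2.06 to 3.34; exact test, adjusted p = 5.97e-15) and below it in replicate 1 at a ratio of 0.172 (0.0041 to 1.13; adjusted p = 0.117). Hcn3 and Gjd3 were both too sparse to order. These tests cover counting error only, since reads without molecular identifiers are not independent molecules.

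Ratios of 8 functional pairs were set side by side as log2 of (TPM + 0.1). The constant makes those of genes near 0 depend on the scale. Folds and their intervals are counts per effective length without the constant, so they differ from the log2 ratios beside them. Working-myocardial Gja1 over conduction and atrial Gja5 was 138-fold in replicate 1 (95% exact interval 105 to 185) and 20.4-fold in replicate 2 (18.4 to 22.8), with a mean log2 ratio of 5.60 ± 1.79 (SD, n = 2). Gja1 over Gjc1 had a log2 ratio of 4.60 ± 0.74 (SD, n = 2) and Gja1 over Gja4 one of 7.02 ± 3.23. The vessel connexins Gja5 and Gja4 differed 26.7-fold in replicate 1 (4.58 to 1073) and 1.33-fold in replicate 2 (1.09 to 1.62), a log2 ratio of 1.42 ± 1.44. Gja1 thus exceeded each other connexin in both libraries, while the size of its excess over Gjc1, Gja5 and Gja4 differed by more than the counting intervals.

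Among the conduction genes, Gjc1 over Gjd3 was at least 14.6-fold in replicate 1, taking 3 counts for the 0 of Gjd3, and 102-fold (18.1 to 4026) on 1 Gjd3 count in replicate 2, a log2 ratio of 4.97 ± 0.76 (SD, n = 2). Hcn4 over Hcn3 was at least 1.72-fold in replicate 1 and 6.82-fold (2.60 to 25.4) in replicate 2, a log2 ratio of 1.78 ± 0.91. In replicate 2 this sets Hcn4 against an Hcn3 level that rests mostly on short retained-intron transcripts. Hcn2 over Hcn4 lay on opposite sides of 1: 0.267 (0.049 to 0.955) in replicate 1 and 2.69 (2.19 to 3.31) in replicate 2. Its mean log2 ratio of 0.31 ± 1.51 (SD, n = 2) is smaller than its SD and became -0.18 on nuclear TPM, where Gjc1 over Gjd3 became 7.13 and Hcn4 over Hcn3 3.38. Gja1 over Hcn2 was 2370-fold (811 to 11496) and 26.6-fold (23.7 to 29.9) without the constant, and 6.95 ± 3.17 as a log2 ratio with it.

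The libraries themselves were compared gene by gene as replicate 2 over replicate 1, by edgeR's two-sided exact binomial test on counts scaled by TMM, a method that matches the bulk of the genes, with Benjamini-Hochberg adjustment over 13182 genes. This compares 2 libraries of 1 heart, not conditions. Of the 6 members with at least 20 counts over both libraries, 4 were higher in replicate 2 (Gja4, Gja5, Hcn2 and Hcn4) at an adjusted p under 0.05 and with a ratio of 2-fold or more. Of all genes tested 38.4% were higher by the same rule. Gja1 was the single member called lower, as were 27.2% of all genes, and Gjc1 passed in neither direction, so 5 of 6 tested members were called against 65.6% of all genes. Gjd3 and Hcn3 had too few counts for a test. The median log2 ratio over all tested genes was 0.21.

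Gja4 had a 53.1-fold higher scaled count in replicate 2 (95% exact interval 9.38 to 2110; log2 5.15; edgeR adjusted p = 3.10e-18) and Hcn2 a 36.3-fold higher one (12.3 to 177; log2 4.96; edgeR adjusted p = 1.71e-35). The other members called higher moved less: Hcn4 3.48-fold (2.00 to 6.54; edgeR adjusted p = 5.39e-07) and Gja5 2.51-fold (1.87 to 3.43; edgeR adjusted p = 1.23e-11). Gja1 stood at 0.393 of its replicate 1 level (0.380 to 0.406), a log2 ratio of -1.35 with an edgeR adjusted p listed as 0, although with total counts as library sizes the sign turned to 0.33. Gjc1 was at a ratio of 0.757 (0.609 to 0.945; log2 -0.40; edgeR adjusted p = 0.0157), short of the fold required, and with total counts it was called higher at a log2 ratio of 1.28.

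The members' ratios were set against the GC content of their transcripts. Gja1 (44.5%) and Gjc1 (49.2%) had the lowest GC content of the 8 and were the members with a ratio below 1 under TMM scaling. Gja5 followed at 50.7%, then Hcn4 at 58.0%, Gja4 at 58.8% and Hcn2 at 65.4%, all called higher. Genes of 40 to 45% GC had a median log2 ratio of -1.50 (interquartile range -1.83 to -1.18), those of 55 to 60% one of 3.56 (2.42 to 4.74), and those of 60% or more one of 5.01 (3.78 to 6.23).

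With the median log2 ratio at each gene's GC content removed, no member was called higher. Against the raw values above, the ratio of Gja1 became -0.12, that of Gja4 0.89, that of Gja5 0.77 and that of Hcn2 -0.17, none of them called. Hcn4 changed sides: its ratio of 1.75 lay below the 4.20 of genes at its GC content. After removal its ratio was -2.45 (exact binomial test with the trend taken as known, adjusted p = 5.58e-06). Hcn4 was the only member then called, lower in replicate 2. By this measure 10.2% of all genes were higher and 10.9% lower, or 21.2% in either direction. The Hcn4 transcript has 3798 bases in the deposited tables and 6118 in the annotation used for GC content. Over the deposited length, taken as the first 3798 bases of the annotated sequence, its GC content was 62.0% and its ratio after removal -3.30. The sequence behind the deposited length was not read.

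**Figure D3:**
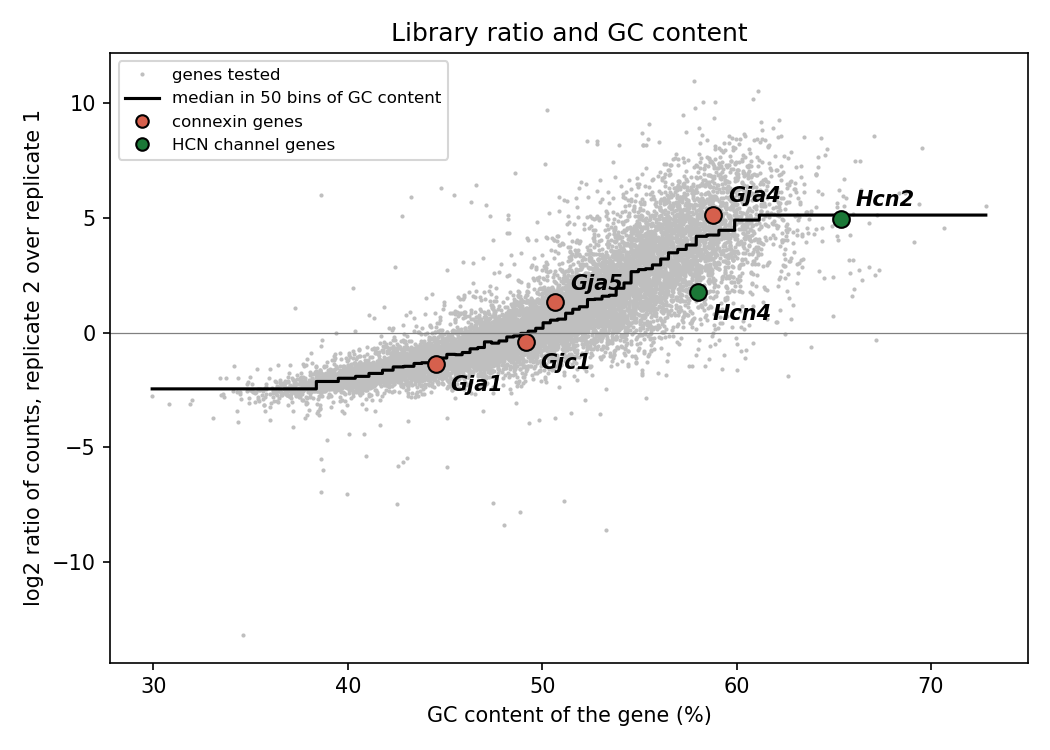
Log2 ratio of replicate 2 over replicate 1 (TMM scaling) against GC content in percent, for all genes tested (grey points), the median in 50 bins of GC content (line), and the 6 tested members (large points, connexins red, HCN genes green). Gja4, Gja5, Gjc1, Gja1 and Hcn2 lie within 0.89 of the line, and Hcn4 lies 2.45 below it; with total counts as library sizes Gja1 and Gjc1 would stand above 0.

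The same adjustment was applied to the ratios within replicate 1. Gja1 over Hcn2, at log2 9.18 in replicate 1 and 4.71 in replicate 2, became 4.82 and 4.71 (4.76 ± 0.08, SD, n = 2). Gja1 over Gjc1 became 3.93 and 4.07 (SD 0.10). The adjustment is fitted to these libraries, so a closer match is partly built in. Gja1 over Gja5 (SD 1.79 to 0.59), Gja1 over Gja4 (3.23 to 0.94) and Gja5 over Gja4 (1.44 to 0.35) also came closer. Gjc1 over Gjd3 changed little (SD 0.76 to 0.78). Hcn2 over Hcn4 and Hcn4 over Hcn3 moved apart. Hcn2 over Hcn4 still lay on opposite sides of 0, at -1.0 and 1.38 on the log2 scale, and its SD rose from 1.51 to 1.69. Hcn4 over Hcn3 went from 1.14 and 2.42 to 4.53 and 2.42, and its SD from 0.91 to 1.49. Hcn3 and Gjd3 had 0 TPM in replicate 1, which the adjustment leaves at 0. The 4.53 is therefore Hcn4 scaled up against the added constant, and cannot show whether Hcn4 and Hcn3 diverge.

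Transcript shares were compared for the members with more than 1 transcript. Gja5 was led by Gja5-201 in both libraries, with 100% and 94.5% of its abundance. Hcn2-201 held 100% in replicate 1, on 3 counts, and Hcn2-202 held 100% in replicate 2, on 302; the transcripts differ by an intron of 106 bases in the last exon. The leading transcript was thus the same in 1 of the 3 genes with counts to compare. The authors' posterior shares in replicate 1 were 51.3% for Hcn2-201 and 48.7% for Hcn2-202, so these 3 counts show no clear leader. Those of Gja5-201 were 79.9% in replicate 1 and 90.2% in replicate 2. Hcn3 had no counts in replicate 1 and was not compared.

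The Gjc1 shares rest on 124 and 260 counts. In replicate 1, Gjc1-202 held 90.6% and Gjc1-205 9.40%, whereas in replicate 2 Gjc1-201 led with 54.3%, ahead of Gjc1-202 with 25.8%, Gjc1-204 with 8.91%, Gjc1-203 with 6.46% and Gjc1-205 with 4.59%. Gjc1-201 and Gjc1-202 share their last 2 exons, coding sequence included, and differ by their first exon. That of Gjc1-201 (chr11:102818970-102819179, 210 bases) is 81.9% G and C, that of Gjc1-202 (chr11:102819504-102819700, 197 bases) 57.9%, and the shared last exon 45.7%. The authors' posterior estimates were less apart, with 38.1% for Gjc1-202 and 33.2% for Gjc1-201 in replicate 1, and 27.6% and 44.9% in replicate 2. Read assignment among transcripts that share most bases is an estimate, and no test was made of these shares.

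**Figure D4:**
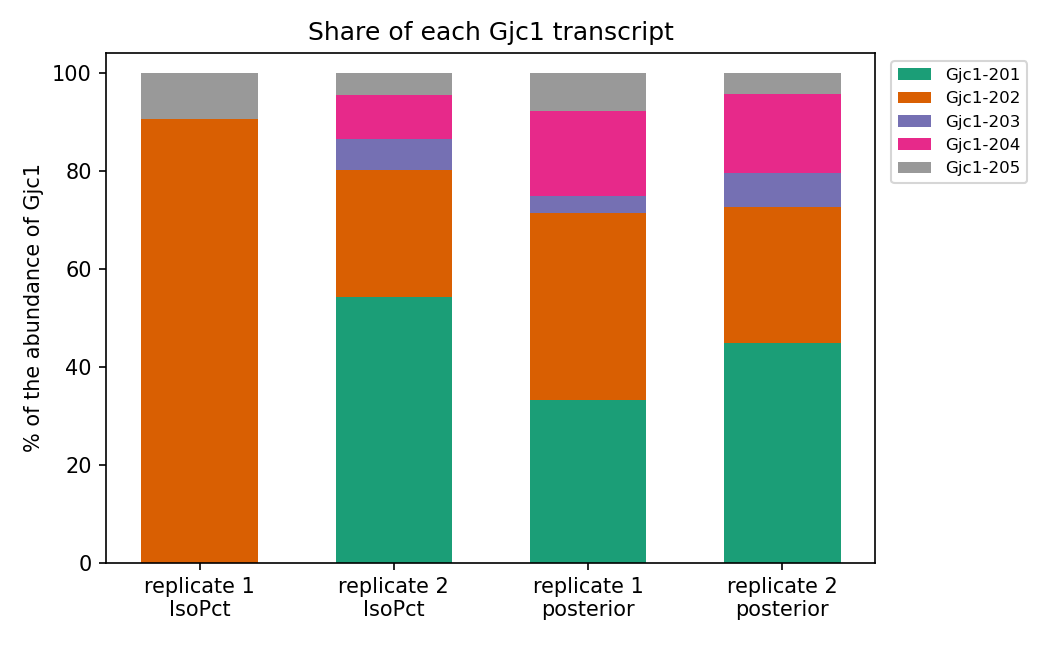
Share of Gjc1 abundance held by each of its 5 transcripts, in percent, in technical replicates 1 and 2, as the deposited IsoPct (left pair of bars) and the deposited posterior estimate (right pair). By IsoPct Gjc1-202 leads in replicate 1 with 90.6% and Gjc1-201 in replicate 2 with 54.3%, and the posterior shares lie closer, at 33.2% and 44.9% for Gjc1-201.

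Genes that work with the members gave the context, each list described by its calls between the libraries against the 38.4% higher and 27.2% lower of all genes. Of 16 gap junction partners tested (junction scaffolds, intercalated-disc proteins and connexin-turnover factors), 5 were higher and 5 lower, with a median log2 ratio of -0.28, and with the GC trend removed 2 were higher and 1 lower. The 3 most abundant, the desmosomal Dsp (26.4 and 133 TPM), Ctnnb1, which encodes β-catenin (27.8 and 121 TPM), and the ubiquitin ligase Nedd4 (33.8 and 103 TPM), were not called. Gja1, at 75.6 and 138 TPM, was above each of these in both libraries.

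Of 15 tested pacemaker partners 5 were higher and 3 lower, with a median of 0.04, and with the GC trend removed 2 were higher and 3 lower. Popdc2, which encodes a cAMP-binding protein, had 6.60 and 199 TPM and was higher (log2 2.70) under TMM scaling. Kcnj3, a subunit of the acetylcholine-gated potassium channel, was lower (36.8 and 34.3 TPM; log2 -2.29) under TMM scaling, and the calcium release channel Ryr2 was not called (25.8 and 109 TPM). All 3 stood above each HCN member in both libraries. With the GC trend removed neither Popdc2 (log2 0.76) nor Kcnj3 (log2 -0.51) was called. Of 15 tested conduction regulators 7 were higher and 3 lower, with a median of 1.00. With the GC trend removed 2 were higher and 5 lower, and the median turned to -0.29. The most abundant, Hopx (10.8 and 130 TPM), Smoc2 (2.65 and 25.3 TPM) and Nkx2-5 (0 and 20.3 TPM), were called higher under TMM scaling. With the GC trend removed Hopx and Nkx2-5 were still called higher, and Smoc2 was not.

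Markers of the cells that carry the members were read beside them. Sinoatrial and conduction markers summed to 68.6 nuclear TPM in replicate 1 and 86.4 in replicate 2, with 2 of 5 tested higher and 2 lower, or 0 and 2 with the GC trend removed. Smoc2 carried that direction: without it the sums were 31.9 and 21.6. The sinoatrial factor Isl1 had 4 and 7 counts. Arterial endothelial markers, of cells that express Gja4 and Gja5, summed to 75.2 and 53.5, with 1 of 5 higher and 1 lower, or 0 and 3 with the GC trend removed. General endothelial markers summed to 284 and 594, with 3 of 5 higher, or 1 with the trend removed. Working cardiomyocyte markers summed to 5896 and 38720, with 4 of 5 higher, or 2 with the trend removed, and none lower, opposite in direction to Gja1 under TMM scaling. Their part in the members' ratios was not tested.

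Further marker lists moved with the libraries as well. Atrial cardiomyocyte markers summed to 761 and 10370 nuclear TPM (4 of 4 higher, 3 with the GC trend removed) and smooth muscle markers to 63.0 and 638 (5 of 5 higher, 4 with it removed). Pericyte markers summed to 1406 and 362 (2 higher, 1 lower, none called with the trend removed), a fall carried by Rgs5, without which they summed to 13.4 and 39.9. Fibroblast markers summed to 2491 and 2236 (2 higher, 2 lower, 1 each with the trend removed). Low sums were found for macrophage markers (14.8 and 96.1), neuron and Schwann markers (13.0 and 13.2, with Th, Dbh and Prph at 0 in replicate 1), epicardial markers (22.0 and 50.4) and liver markers (32.0 and 67.2). Both libraries are labelled as coming from the same biological sample.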

How the data were processed

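Expected counts, posterior mean counts, TPM and FPKM per gene and transcript, and the percent of each gene's abundance per transcript, are the deposited values, made on mm10 with annotation M4 per the file descriptions. Aligner and abundance program: not given in the sources used here. All 16 member counts (8 genes, 2 libraries) were whole. Members and lists were chosen with earlier results of these data known. Identifiers were matched without version to release M21 (1-based coordinates). Nuclear copies of mitochondrial genes (blastn 2.17.0) were left out of nuclear TPM.

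Counts were rounded and compared with edgeR 4.0.16 (R 4.3.3): an exact binomial test for at least 20 counts over both libraries (chi-square above 10000), TMM sizes, 0.5 counts added to ratios. Called genes had a Benjamini-Hochberg adjusted p under 0.05 and at least 2-fold change. GC trends were medians in 50 bins. With them removed, the same kind of test was run outside edgeR, with library sizes scaled by each gene's trend. On simulated data with 1.5-fold, 2.5-fold, 4-fold and 8-fold changes, 2%, 86%, 96% and 96% of the changed genes were called, with 13241 genes tested. Both libraries were drawn there as Poisson counts from 1 averaged profile without a GC trend. These percentages therefore do not cover the GC difference between the real libraries, and the 2-fold threshold limits calls at 1.5-fold. Intervals are 95% Wilson or exact. Alternatives covered scaling, filters, posterior estimates, pseudocounts, GC content and single libraries. The genes named were all members, the 3 most abundant of each partner list, and the nearest genes in level to 4 members. Some items under these rules are not reported here. Cell type markers are named where a summed level needs them.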

Additional observations from a re-analysis of the deposited data

How the results depend on the processing

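Of the alternative values for counts of calls, orders, pair ratios and transcript leaders, 70 kept their direction and stayed close to the reported value. Close meant within 1 SD, or for counts within 1.5 times. A further 13 moved more and 4 reversed, and the cause was not tested. Each of 2 libraries always lies within 1 SD of their mean. A pair ratio with 1 library left out could therefore reverse but never count as moved, and such values are no measure of stability. The 4 members called higher fell to 0 with the GC trend removed, by either measure of GC content (the one over the deposited length was chosen after seeing the data), and the 1 called lower became 0 with total counts and 2 with no fold threshold. With total counts the log2 ratio of Gja1 became 0.33 and that of Gjc1 1.28. With the GC trend removed that of Hcn2 became -0.17, or -0.09 over the deposited length, and that of Hcn4 -2.45 or -3.30. The log2 ratio of Gjc1 over Gjd3 became 7.10 at a pseudocount of 0.01, 2.35 at 1 and 7.13 as nuclear TPM. Hcn2 over Hcn4 reversed to -0.14 at 0.01, -0.18 as nuclear TPM and -0.26 with GC over the deposited length. Hcn4 over Hcn3 became 3.22 at 0.01, 0.68 at 1, 0.51 as posterior TPM and 3.38 as nuclear TPM. With GC adjusted it became 3.47 or 3.88, where Hcn3 stays at 0 TPM in replicate 1. Leaving out 1 library each gave 4.33 to 6.86 for Gja1 over Gja5, 4.07 to 5.12 for Gja1 over Gjc1, 4.74 to 9.30 for Gja1 over Gja4, 0.40 to 2.44 for Gja5 over Gja4, 4.44 to 5.51 for Gjc1 over Gjd3, -0.76 to 1.38 for Hcn2 over Hcn4, 1.14 to 2.42 for Hcn4 over Hcn3 and 4.71 to 9.18 for Gja1 over Hcn2. No paired analysis was possible because there is 1 group. Gjd3 and Hcn3 had few or no counts in both libraries, and whether depth limits them was not tested.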

Other observations

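Beyond the 8 members, 18 further connexin and pannexin genes were read. Gja3, Panx1 and Panx2 had enough counts for a test and were all higher in replicate 2, as were 38.4% of all genes. Their GC content was 53.4%, 54.1% and 62.4%. Gja3 had 1 and 129 counts (0.02 and 4.91 TPM, log2 ratio 4.96). It was still called higher after the GC trend was removed, at 3.37, as were 10.2% of all genes but none of the members. The channel-forming pannexins were low: Panx1 had 2 and 26 counts and Panx2 1 and 31. Neither was called after the GC trend was removed, at log2 ratios of 0 and -2.21. Among the others, Gja10, Gjd2, Gje1 and Panx3 had no count in either library, and Gja6, Gjb1, Gjb2, Gjb6 and Gjd4 had 3 counts or fewer in both.

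The protein-coding gene nearest to Gja1 in nuclear TPM over the 2 libraries was Anp32a (1032 in replicate 1 and 337 in replicate 2). Those nearest to Gjc1 were Spaca6 and Vps39, to Hcn2 Plekhg5 and Isoc2b, and to Hcn4 Ctif and Ssh1. With only 2 technical libraries, likeness here means a similar pair of levels among 12463 genes and nothing more.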
